A study of Homo sapiens with 15 samples.

Results

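The 36 genes described here are 16 glycolytic enzymes and 20 other genes known to respond to low oxygen, taken by symbol from the deposited expression values of 2 clear cell renal cell carcinoma (ccRCC) cell lines. All 36 were measured in 786O cells, among 16188 genes, and 35 in CAKi-1 cells, among 16296 genes, where carbonic anhydrase CA9 is not listed. The rule names symbols and uses no measured value, but the list was drawn up with earlier results of these data known. The study compared cells that lost ANGPTL4, a secreted inhibitor of lipoprotein lipase (A4KO), with wild-type cells (WT), by poly(A) RNA-seq of 15 libraries.

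In both lines the knockout was made by direct transfection of Caspase 9 protein, as the labels name it, with a single guide RNA against ANGPTL4, and A4KO cells are single clones that were picked for loss of ANGPTL4, grown out and then combined. The 3 WT libraries of 786O come from combined clones that kept ANGPTL4, and there are 3 A4KO libraries. For the 4 WT libraries of CAKi-1 the sources differ, since the methods name the parental cells as control and the design text names combined clones, so passage through transfection and cloning cannot be told apart from genotype there. CAKi-1 has 5 A4KO libraries. In both lines the choice of clones cannot be told apart from genotype. All cells were harvested in log phase, and the study describes 786O as VHL mutant and CAKi-1 as VHL wild type. The sources differ on the growth medium, which is DMEM with serum in the methods and RPMI in the labels. The methods describe no low-oxygen treatment. No label says that the replicates are separate cultures, so that p-values measure only the spread between these libraries, which may be technical.

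Cells answer low oxygen through hypoxia-inducible factors, pairs of an alpha subunit (HIF1A or EPAS1) with ARNT, which bind a short DNA motif near their target genes. With oxygen present, the VHL protein marks the alpha subunits for destruction, and loss of VHL, the founding lesion of most ccRCC, leaves the targets on. The best known targets move cells toward glycolysis, in which glucose is taken up and split to pyruvate and then lactate, and others buffer acid, call in vessels, remodel collagen or clear mitochondria.

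The knockout was visible at ANGPTL4 itself, which lay between 71.7 and 86.9 TPM, the share of a library's transcripts scaled to a fixed total, in CAKi-1 WT and between 2.87 and 7.26 in A4KO, and between 17.6 and 20.6 in 786O WT and 1.86 and 2.19 in A4KO. Of the genes for hypoxia-inducible factors, HIF1A RNA fell in 786O from between 174 and 186 TPM to between 13.3 and 18.2 (log2 fold change of TPM + 1 -3.40, SE 0.11, limma adjusted p = 3.16e-06). EPAS1 RNA rose in CAKi-1 from between 24.2 and 32.0 TPM to between 98.3 and 129.6 (1.99, SE 0.10, adjusted p = 2.66e-06). EPAS1 fell in 786O from between 82.8 and 90.3 TPM to between 63.5 and 66.2 (-0.41, adjusted p = 3.46e-04), and HIF1A lay between 265 and 291 TPM in CAKi-1 WT and between 214 and 282 in A4KO (-0.21, adjusted p = 0.106). The HIF1A and EPAS1 proteins were not measured in these data, and their part in the changes of the members was not tested. Renal PAX8 and LHX1 were listed in both lines and PAX2 in 786O alone. In CAKi-1 A4KO the epithelial keratins KRT8 and KRT18 summed to 488 to 1017 TPM against 1985 to 2876 in WT, and in 786O to 611 to 625 against 792 to 817. The renal markers summed in 786O to 311 to 322 TPM in A4KO against 364 to 384 in WT, and in CAKi-1 to 218.5 to 294 against 202 to 241, with overlap. Of 8 markers of blood, endothelium and fibroblasts, 6 were listed in CAKi-1 and 5 in 786O, with CD3E and CDH5 in neither, and their sums were 60.7 to 64.0 TPM in CAKi-1 WT, 53.9 to 68.0 in A4KO, 50.4 to 53.6 in 786O WT and 21.5 to 23.1 in A4KO. Their part in the results below was not tested, and in such bulk samples fewer cells of a type and less RNA per cell cannot be told apart.

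CAKi-1 A4KO replicates 1 and 4 stood apart from replicates 2, 3 and 5. The median difference between libraries was 0.202 to 0.233 on the log2 scale across that split and 0.0788 to 0.101 within its sides, where CAKi-1 WT pairs gave 0.0743 to 0.111. Of the 35 members, 25 were higher in both of these libraries than in each of the other 3, against 33.9% of all genes, and 4 were lower in both, against 26.1%. The labels do not separate them, so all 5 were kept. Values without these 2 stand beside members that then cross a limit set below, and those that turn direction are given near the end.

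Members are called below when their log2 fold change is 1 or more in size and their p, adjusted over all genes of the line by the Benjamini-Hochberg method, is 0.05 or less. The adjusted p alone is given beside that. In CAKi-1, 4 of 35 members were called, 2 higher (CA12, NDRG1) and 2 lower (STC2, CCND1), where 3.33% of all genes were called, 2.21% higher and 1.12% lower. By the adjusted p alone 3 rose, 15 fell and 17 did not pass, where 39.0% of all genes passed, 17.9% higher and 21.1% lower, and of genes with a mean of at least 10 TPM 47.4% passed, 18.3% higher and 29.0% lower. Groups did not overlap for 2 members higher and 14 lower, where 35.9% of all genes had no overlap, 16.1% higher and 19.8% lower. In 786O, 7 of 36 were called, 2 higher (NDRG1, ENO2) and 5 lower (LOX, CA9, STC2, PFKFB4, HK2), where 7.62% of all genes were called, 2.43% higher and 5.19% lower. By the adjusted p alone 12 rose, 19 fell and 5 did not pass, where 61.0% of all genes passed, 27.5% higher and 33.5% lower, and of genes with a mean of at least 10 TPM 73.3% passed, 36.6% higher and 36.7% lower. Groups did not overlap for 12 members higher and 20 lower, where 66.9% of all genes had no overlap, 30.1% higher and 36.8% lower. The median change of the members was -0.20 in CAKi-1 and -0.11 in 786O, beside -0.01 and -0.03 for all genes. Past the adjusted p, 9 members fell in both lines, 2 rose in both (CA12, NDRG1), and 5 went opposite ways (GPI, ALDOA, PGAM1 and SLC2A1 lower in CAKi-1 and higher in 786O, LOX the reverse). Of the 15247 genes measured in both lines, 7.08% fell in both, 4.95% rose in both and 16.0% went opposite ways. Of these members, PGAM1, PKM, BNIP3, CCND1 and GPI in 786O and SLC2A1, VEGFA, LOX, NDRG1 and PKM in CAKi-1 did not pass when some single libraries were left out.

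Of the 16 glycolytic enzymes, 10 fell in CAKi-1 past the adjusted p, 0 rose and 6 did not pass, with a median of -0.35 and 0 calls. Past the same limit 21.1% of all genes fell there, and 29.0% of those with a mean of at least 10 TPM. Of all genes 3.33% were called. In 786O 6 enzymes rose and 7 fell, with 2 calls and a median of -0.02. There 61.0% of all genes passed the adjusted p, and 73.3% of those with a mean of at least 10 TPM, and 7.62% were called. The summed TPM of the enzymes was 2.11% of the listed total in CAKi-1 WT (SD 0.02, n = 4) and 1.55% in A4KO (SD 0.05, n = 5). In 786O it was 1.87% in WT (SD 0.03, n = 3) and 1.76% in A4KO (SD 0.03, n = 3). The ranges did not overlap in either line. Mean ENO1 went from 3929 to 2345 TPM in 786O and ALDOA from 1174 to 2336, while GAPDH went from 6450.3 to 4511 TPM in CAKi-1. Several enzymes have pseudogenes named after them in GENCODE release 44 (65 for GAPDH, 13 for PGAM1, 6 for LDHA, 5 for PKM), so that reads may have been shared with copies.

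**Figure D1:**
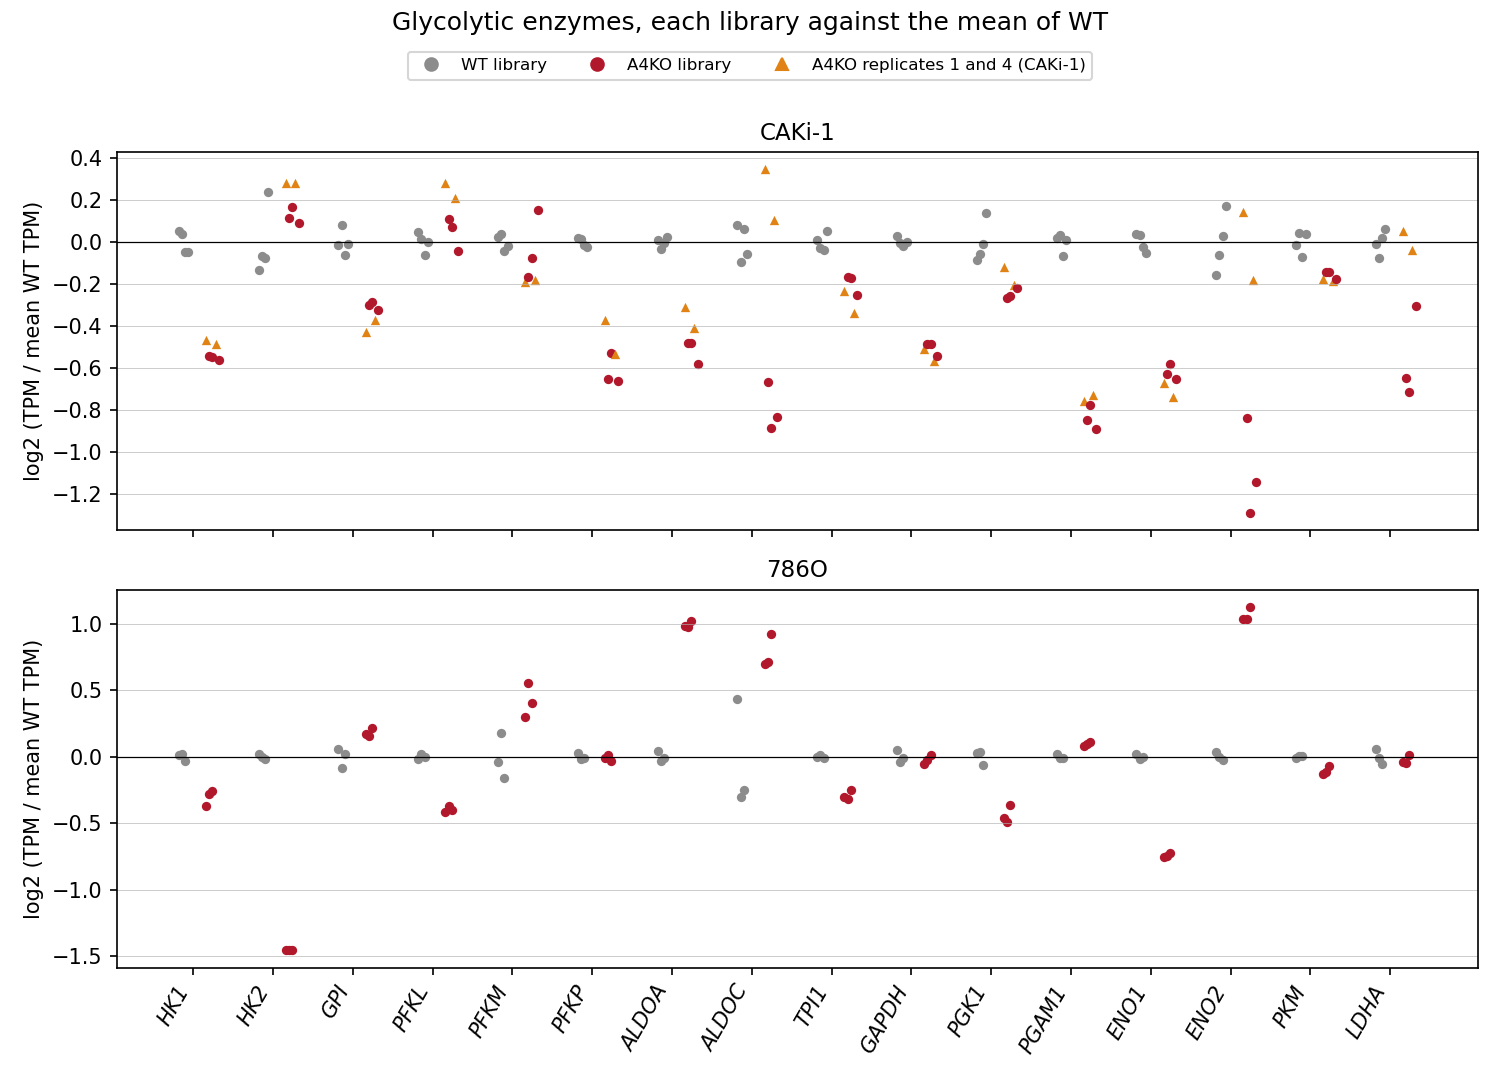
Glycolytic enzymes in pathway order, each point the log2 ratio of a library's TPM to the mean WT TPM of its line, CAKi-1 above and 786O below (grey WT, red A4KO, orange triangles CAKi-1 A4KO replicates 1 and 4). In CAKi-1 10 of the 16 enzymes have every A4KO library below every WT library, as do 19.8% of all genes. In 786O HK2 lies lowest and ENO2 and ALDOA highest.

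Glucose is first trapped by hexokinase. HK1, the housekeeping form, fell in both lines, from 103 TPM in CAKi-1 WT (SD 3.81, n = 4) to 72.0 in A4KO (SD 2.14, n = 5), and from 97.2 in 786O WT (SD 1.98, n = 3) to 78.9 in A4KO (SD 3.19, n = 3). To set each gene against its surroundings, the median shift of its 25 nearest expressed genes to either side was subtracted (neighbours taken off), and the CAKi-1 fall of -0.51 was then -0.29. HK2, the hypoxia-induced form, was 34.1, 33.7 and 33.3 TPM in the 786O WT libraries and 12.3 in each A4KO library. The groups were far apart, a 2.75-fold fall (log2 fold change -1.39, SE 0.03, adjusted p = 9.12e-07). In CAKi-1 HK2 was low, at 7.47, 7.83, 7.76 and 9.66 TPM in WT and 9.94, 8.86, 9.18, 9.95 and 8.72 in A4KO, with overlapping groups (0.17, SE 0.08, adjusted p = 0.102, and 0.25 with an adjusted p of 0.0149 without WT replicate 4). The change differed between the lines by -1.56 (SE 0.10, interaction adjusted p = 2.35e-08). As a share of HK1 and HK2 together, HK2 went from 25.5% to 26.0% in 786O WT to 13.1% to 14.0% in A4KO, and from 6.52% to 8.81% in CAKi-1 WT to 11.1% to 11.9% in A4KO.

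GPI, which turns glucose 6-phosphate into fructose 6-phosphate, fell in CAKi-1 (203 to 160.4 TPM, log2 fold change -0.34) and rose in 786O (144 to 164 TPM, 0.18), a rise lost without A4KO replicate 3 (adjusted p = 0.0606). Of the phosphofructokinases, which commit sugar to glycolysis, PFKP was the most abundant in both lines. It fell in CAKi-1 from 412 TPM (SD 6.53, n = 4) to 282 (SD 23.4, n = 5), a change of -0.55 on the log2 scale (SE 0.06, adjusted p = 2.52e-04, and -0.29 with an adjusted p of 0.0142 with neighbours taken off), and was 478 and 475 TPM in 786O WT and A4KO (adjusted p = 0.827). PFKL was 61.2 and 67.0 TPM in CAKi-1 and did not pass, and fell in 786O from 122 to 92.5 (-0.39). PFKM was 83.4 and 78.6 TPM in CAKi-1 and did not pass (-0.09, and -0.15 with an adjusted p of 0.04 without A4KO replicate 5), and rose in 786O from 45.8 to 61.4 (0.42). The share of PFKP among these 3 went from 73.9% to 74.5% in CAKi-1 WT to 63.1% to 68.3% in A4KO.

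ALDOA, the main aldolase, which splits the sugar phosphate made by phosphofructokinase, moved in opposite directions. In CAKi-1 it was 1689.6, 1638, 1672 and 1704 TPM in WT and 1353, 1201, 1203, 1262 and 1121 in A4KO, and in 786O it was 1207, 1149 and 1165 TPM in WT and 2319.7, 2306 and 2381 in A4KO. Every A4KO library was below WT in CAKi-1 (-0.45, SE 0.06, adjusted p = 4.25e-04) and above WT in 786O (0.99, SE 0.04, adjusted p = 4.61e-06), just under the fold change for a call. The changes differed by 1.44 (SE 0.08, adjusted p = 4.09e-09). With neighbours taken off, ALDOA changed by 0.59 in 786O and -0.34 in CAKi-1, a difference of 0.94 (adjusted p = 7.16e-07), under the limit of 1. ALDOC, the brain form, was far lower, at 20.5 and 16.8 TPM in CAKi-1 and 1.37 and 2.35 in 786O. In CAKi-1 it did not pass (-0.36, adjusted p = 0.271) and fell without A4KO replicates 1 and 4 (-0.74, adjusted p = 2.53e-04).

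The enzymes of the lower pathway, which handle the split sugars and yield ATP, fell in CAKi-1 but for ENO2 and LDHA. GAPDH went from between 6359 and 6573 TPM in WT to between 4353 and 4616 in A4KO (log2 fold change -0.52, SE 0.04, adjusted p = 3.51e-05, and -0.32 with neighbours taken off), and was 3217 and 3168 TPM in 786O WT and A4KO (adjusted p = 0.680, and a fall of -0.21 with an adjusted p of 0.00895 with neighbours taken off). The changes of GAPDH, often used as a reference gene, differed by 0.49 (SE 0.06, adjusted p = 7.70e-06), but by 0.11 with an adjusted p of 0.160 once neighbouring genes were taken off. TPI1, which interconverts the split sugars, fell by 14.7% in CAKi-1 and fell by 18.2% in 786O. PGK1, which makes ATP, fell by 13.7% in CAKi-1, which was lost under quantile normalization (adjusted p = 0.0604), and fell by 26.2% in 786O. With neighbours taken off, TPI1 in CAKi-1 was -0.13 (adjusted p = 0.140) and PGK1 in 786O -0.08 (adjusted p = 0.303).

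PGAM1, phosphoglycerate mutase, fell in CAKi-1. It was 1618, 1636, 1527 and 1609.6 TPM in WT and 945, 889, 933, 965 and 862 in A4KO, with no overlap (-0.80, SE 0.05, adjusted p = 1.09e-05). In 786O it was 1449.5, 1418 and 1421 TPM in WT and 1515, 1531 and 1541 in A4KO, a rise of 0.10 whose adjusted p of 0.0408 was lost when any 1 of the 6 libraries was left out and which became -0.08 with neighbours taken off. The changes differed by 0.90 (SE 0.07, adjusted p = 8.74e-08). ENO1, the common enolase, fell by like amounts, from 3097 to 1971 TPM in CAKi-1 (-0.65, SE 0.05, adjusted p = 2.41e-05) and from 3929 to 2345 in 786O (-0.74, SE 0.03, adjusted p = 8.55e-06), the difference lying between -0.23 and 0.04 (95% interval). With neighbours taken off the CAKi-1 fall was -0.38, and the difference was -0.39 (adjusted p = 2.16e-04).

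ENO2, the neuronal enolase and a hypoxia target, went the other way in 786O. It was 31.9, 31.1 and 30.6 TPM in 786O WT and 64.0, 63.9 and 68.1 in A4KO, a 2.09-fold rise (1.04, SE 0.04, adjusted p = 5.74e-06) that lay at 0.90 with neighbours taken off. CAKi-1 had 29.0, 31.0, 33.0 and 36.4 TPM in WT and 35.8, 18.1, 13.3, 28.5 and 14.7 in A4KO. Replicate 1 lay in the WT range, replicate 4 just under it and the other 3 far below it, so that the change of -0.63 (SE 0.27) did not pass (adjusted p = 0.0921). Without replicate 1 alone it was -0.82 (adjusted p = 0.0167), and without replicates 1 and 4 it was -1.03 (SE 0.11, adjusted p = 5.14e-04). The changes in the lines differed by 1.67 (SE 0.35, adjusted p = 0.00109). ENO2 stayed a small share of ENO1 and ENO2 together, 0.775% to 0.795% in 786O WT and 2.66% to 2.79% in A4KO.

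PKM, pyruvate kinase, fell by 10.8% in CAKi-1 and fell by 7.11% in 786O, and the 786O fall (adjusted p = 0.0357) was lost when any library but A4KO replicate 3 was left out. Under quantile normalization the 786O change was 0.036 (adjusted p = 0.417). The CAKi-1 fall was lost without WT replicate 2 (adjusted p = 0.052). With neighbours taken off both falls were larger. LDHA, which makes lactate and is a textbook HIF target, was 2368, 2258, 2416 and 2490.2 TPM in CAKi-1 WT and 2470.5, 1522, 1454, 2322 and 1928 in A4KO. Replicates 1 and 4 lay in the WT range and the other 3 below it (-0.33, SE 0.16, adjusted p = 0.129). Without replicate 1 alone LDHA was -0.42 (adjusted p = 0.0462), and without both -0.55 (adjusted p = 0.00396). In 786O LDHA was 1912 and 1880.3 TPM (adjusted p = 0.667), but rose by 0.22 with neighbours taken off (adjusted p = 0.00358). Without A4KO replicates 1 and 4, 13 of the 16 enzymes fell in CAKi-1 and 0 rose, where 22.2% of all genes fell.

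**Figure D2:**
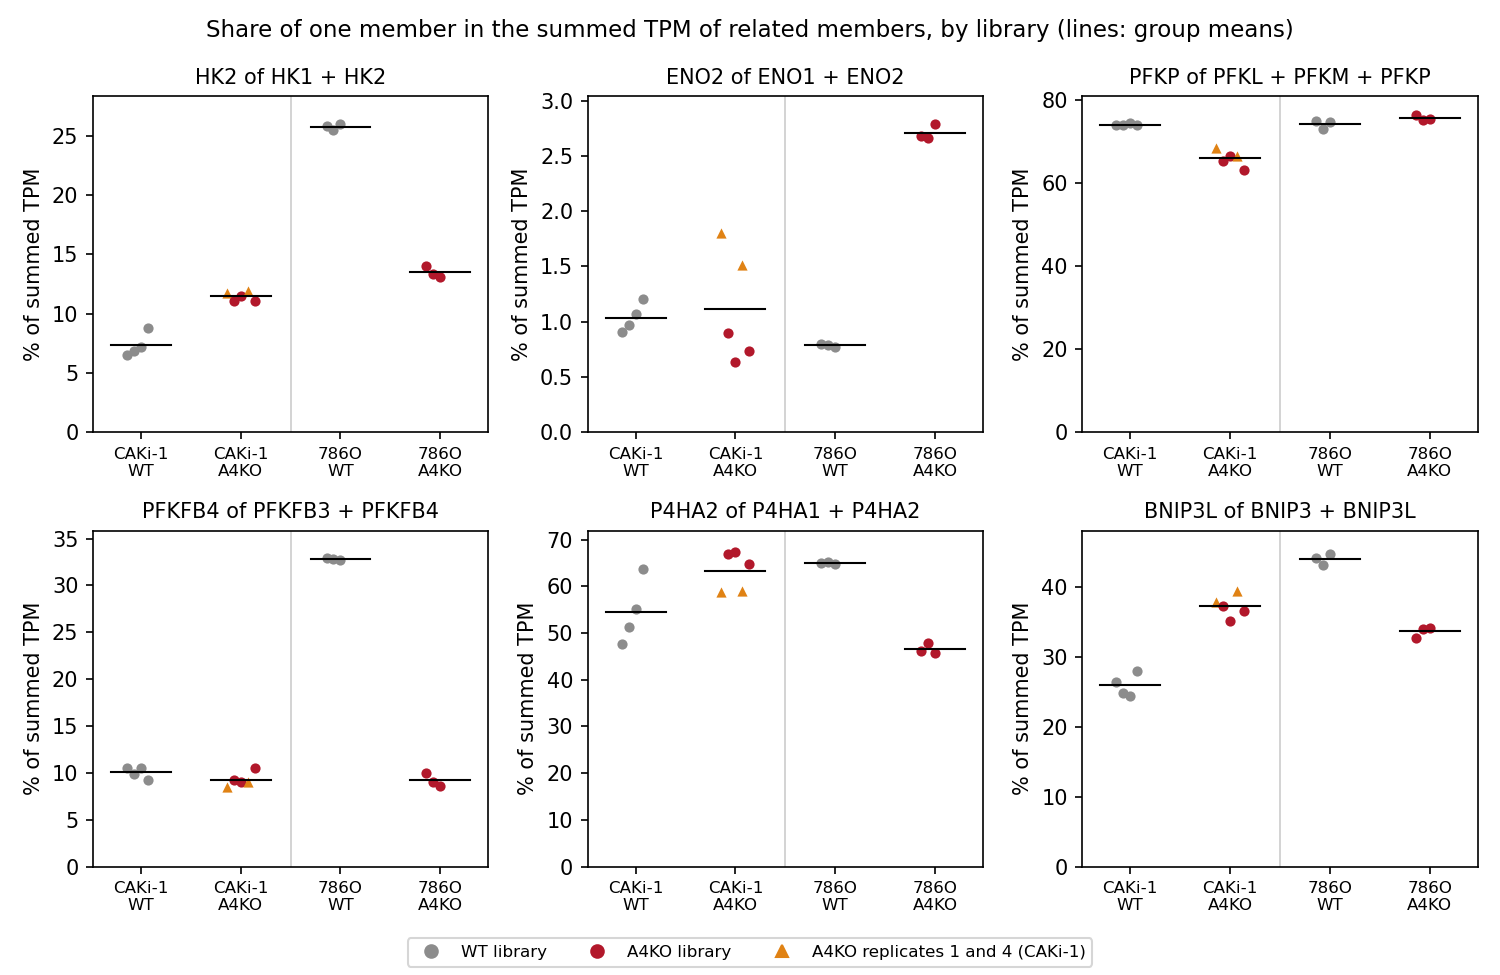
Share of a member in the summed TPM of the related members named in each panel title, by library, with lines at group means and an axis from 0. HK2, PFKFB4 and P4HA2 lose share and ENO2 gains share in 786O A4KO, and BNIP3L gains share in CAKi-1 A4KO and loses it in 786O A4KO.

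To show the DNA before these genes, the 250 bases upstream of the first listed RefSeq start site (GRCh38.p14) are given for the called members of sugar use, HK2 (chr2:74833877-74834126, plus strand), ENO2 (chr12:6914330-6914579, plus strand) and PFKFB4 (chr3:48556804-48557053, minus strand). Capitals mark ACGTG and GCGTG, the core letters that hypoxia-inducible factors bind, or CACGT and CACGC, which are the same letters on the other strand. A palindromic CACGTG counts on both strands.
HK2: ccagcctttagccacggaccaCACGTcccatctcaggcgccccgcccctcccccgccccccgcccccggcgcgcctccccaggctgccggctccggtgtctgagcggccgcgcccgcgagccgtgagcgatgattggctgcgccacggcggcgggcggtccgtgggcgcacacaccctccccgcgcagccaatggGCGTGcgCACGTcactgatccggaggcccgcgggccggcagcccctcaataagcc
ENO2: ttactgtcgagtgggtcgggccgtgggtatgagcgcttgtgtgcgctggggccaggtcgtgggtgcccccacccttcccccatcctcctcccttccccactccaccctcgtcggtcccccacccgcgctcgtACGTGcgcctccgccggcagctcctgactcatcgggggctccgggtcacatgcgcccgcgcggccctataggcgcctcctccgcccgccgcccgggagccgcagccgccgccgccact
PFKFB4: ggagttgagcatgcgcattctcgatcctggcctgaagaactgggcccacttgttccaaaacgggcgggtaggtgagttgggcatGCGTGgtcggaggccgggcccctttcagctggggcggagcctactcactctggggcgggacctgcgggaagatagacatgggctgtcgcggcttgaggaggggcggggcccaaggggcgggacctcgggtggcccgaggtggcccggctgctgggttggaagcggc
Of the 36 members, 31 have a promoter entry, all but SLC2A3, NDRG1, CCND1, BNIP3L and VEGFA, with 58 windows between them. ACGTG was found on either strand in 41.4% of these windows and in 21.1% of the 18533 windows of all genes of the tables, and GCGTG in 37.9% against 40.9%. Genes differ in their number of windows, with 7 each for HK1 and PFKM. Counted by gene, with a match in any window, ACGTG lay in 61.3% of the 31 members and 27.3% of all 12766 genes. GCGTG by gene lay in 58.1% against 50.2%. HK2 holds 2 ACGTG and 1 GCGTG, ENO2 1 ACGTG and 0 GCGTG, and PFKFB4 0 and 1. A match describes letters only.

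The switches of glucose use split in 786O. PFKFB3 and PFKFB4 both make fructose 2,6-bisphosphate, the activator of phosphofructokinase. PFKFB4 was 50.7, 49.2 and 49.3 TPM in 786O WT and 18.9, 17.9 and 16.4 in A4KO, a 2.81-fold fall without overlap (log2 fold change -1.44, SE 0.06, adjusted p = 5.61e-06). PFKFB3 rose there from between 101 and 103 TPM to between 171 and 179.7 (0.77, SE 0.04, adjusted p = 1.08e-05), so that the share of PFKFB4 in the pair went from 32.7% to 32.9% to 8.63% to 9.98%. In CAKi-1 PFKFB4 was 10.7, 9.19, 10.9 and 9.74 TPM in WT and 18.9, 10.0, 8.78, 18.6 and 10.4 in A4KO, high in replicates 1 and 4 alone (0.30, SE 0.22, adjusted p = 0.319), and the changes in the lines differed by -1.74 (SE 0.29, adjusted p = 1.86e-04). PFKFB3 behaved alike in CAKi-1, at 202 and 186 TPM in replicates 1 and 4 and 88.3 to 98.7 in the other 3, beside 83.4 to 95.5 in WT. PDK1, which inhibits pyruvate dehydrogenase and so keeps pyruvate from becoming acetyl-CoA, fell in 786O from 9.27 to 6.84 TPM (-0.39, SE 0.06, adjusted p = 0.00185) and lay between 10.9 and 12.6 TPM in CAKi-1 WT and between 8.18 and 13.1 in A4KO (-0.24, adjusted p = 0.167, but -0.43 with an adjusted p of 0.00146 without A4KO replicates 1 and 4, and 0.0358 without replicate 1 alone).

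Glucose enters through SLC2A1 (GLUT1) and SLC2A3 (GLUT3). SLC2A1 rose in 786O from 637 TPM (SD 7.005, n = 3) to 791 (SD 48.1, n = 3) and fell in CAKi-1 from 92.2 (SD 4.17, n = 4) to 81.4 (SD 1.61, n = 5), and these changes differed by 0.49 (SE 0.07, adjusted p = 5.06e-05). The CAKi-1 fall (-0.18, SE 0.05, adjusted p = 0.0153) was lost without WT replicate 1 (adjusted p = 0.0512) and was -0.086 under quantile normalization (adjusted p = 0.201) and -0.35 with neighbours taken off (adjusted p = 4.84e-04). SLC2A3 fell in 786O from 13.6 to 9.74 TPM (-0.44) and was 14.4 and 16.3 TPM in CAKi-1 (adjusted p = 0.514).

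**Figure D3:**
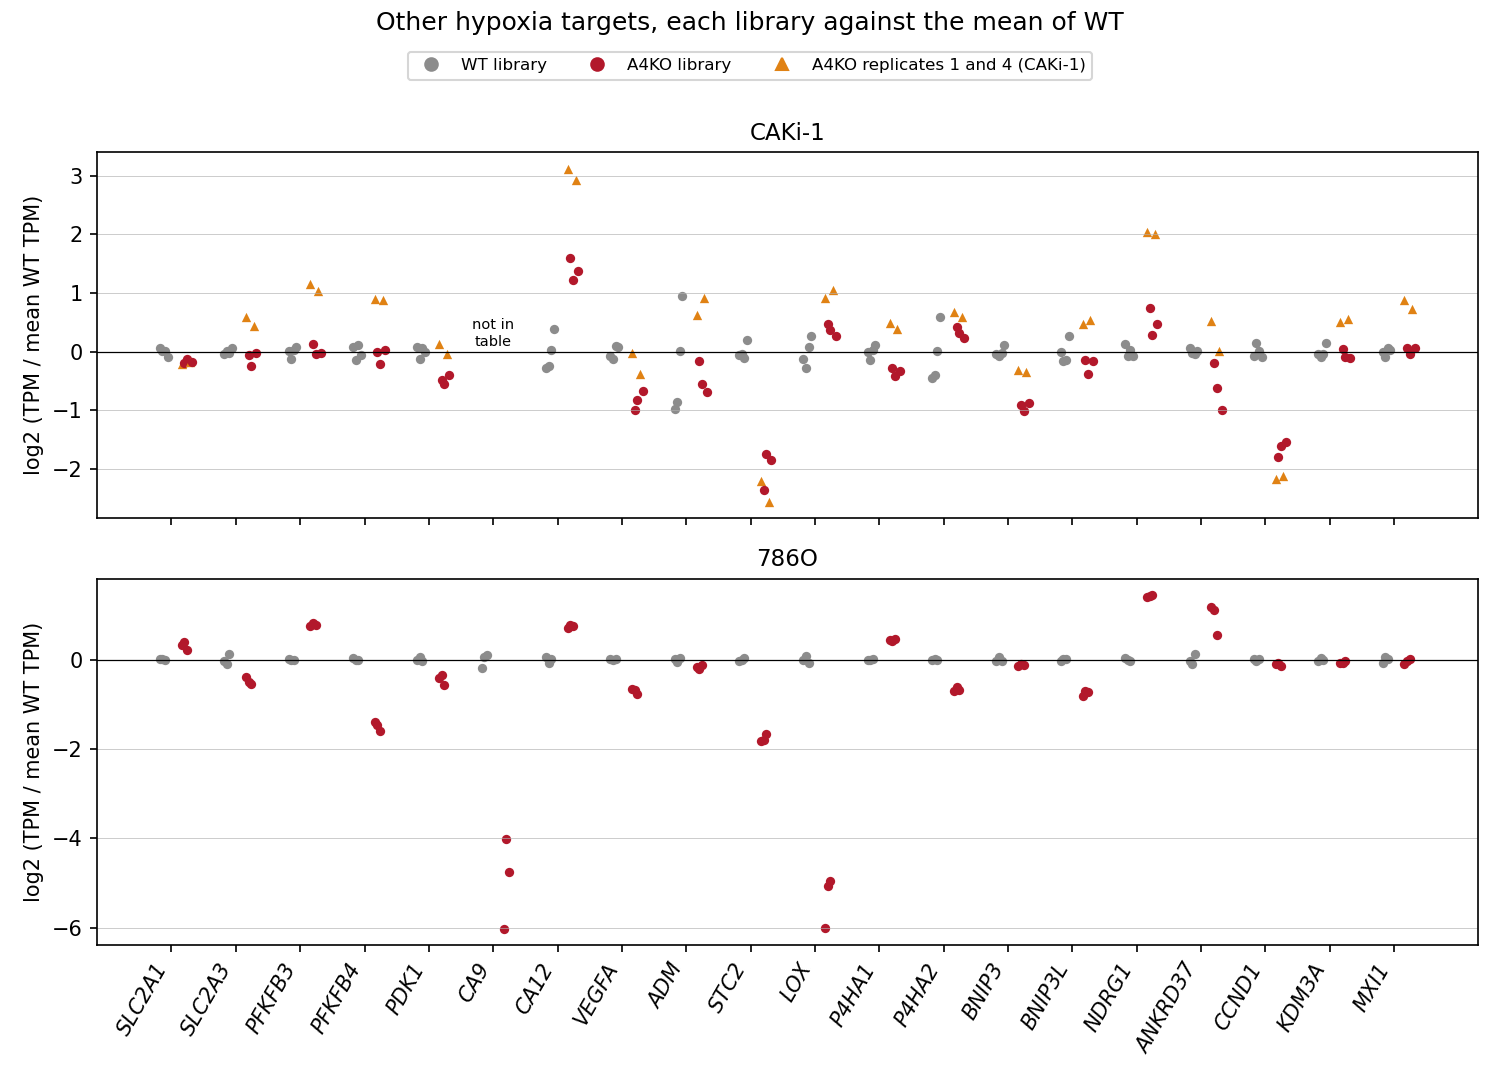
The other hypoxia targets, each point the log2 ratio of a library's TPM to the mean WT TPM of its line (grey WT, red A4KO, orange triangles CAKi-1 A4KO replicates 1 and 4). In 786O LOX and CA9 lie furthest below WT, and in CAKi-1 replicates 1 and 4 lie above the other A4KO libraries for 16 of 19 members.

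Of the 20 other hypoxia targets, 19 were measured in CAKi-1, where 3 rose (CA12, NDRG1, LOX), 5 fell (SLC2A1, VEGFA, STC2, BNIP3, CCND1) and 11 did not pass, with 4 calls and a median of 0.14. That is 42.1% of the 19 past the adjusted p, beside 39.0% of all genes and 47.4% of genes with a mean of at least 10 TPM. Of all CAKi-1 genes 3.33% were called. In 786O 6 of 20 rose (SLC2A1, PFKFB3, CA12, P4HA1, NDRG1, ANKRD37), 12 fell and 2 did not pass, with 5 calls and a median of -0.14. So 90.0% passed the adjusted p, beside 61.0% of all genes and 73.3% of genes with a mean of at least 10 TPM. Of all 786O genes 7.62% were called. Without CAKi-1 A4KO replicates 1 and 4, 2 rose and 8 fell there, where 16.7% of all genes rose and 22.2% fell.

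The upstream 250 bases of 4 called members that are acid buffers, secreted or matrix genes are given in the same way, CA9 (chr9:35673678-35673927, plus strand), CA12 (chr15:63381847-63382096, minus strand), STC2 (chr5:173328415-173328664, minus strand) and LOX (chr5:122078260-122078509, minus strand).
CA9: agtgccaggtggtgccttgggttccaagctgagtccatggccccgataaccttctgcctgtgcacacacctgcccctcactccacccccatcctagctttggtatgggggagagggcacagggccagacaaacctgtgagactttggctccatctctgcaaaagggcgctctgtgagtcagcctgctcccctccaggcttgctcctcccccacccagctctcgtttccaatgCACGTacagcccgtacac
CA12: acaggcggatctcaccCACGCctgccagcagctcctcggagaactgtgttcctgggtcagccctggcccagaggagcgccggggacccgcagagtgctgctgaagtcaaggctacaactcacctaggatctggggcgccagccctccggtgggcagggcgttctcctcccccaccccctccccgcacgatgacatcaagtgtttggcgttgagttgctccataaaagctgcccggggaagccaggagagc
STC2: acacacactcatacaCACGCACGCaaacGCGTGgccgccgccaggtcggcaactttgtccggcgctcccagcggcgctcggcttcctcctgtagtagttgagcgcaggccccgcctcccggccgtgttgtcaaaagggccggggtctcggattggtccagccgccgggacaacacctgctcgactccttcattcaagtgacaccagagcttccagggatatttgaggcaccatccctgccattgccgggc
LOX: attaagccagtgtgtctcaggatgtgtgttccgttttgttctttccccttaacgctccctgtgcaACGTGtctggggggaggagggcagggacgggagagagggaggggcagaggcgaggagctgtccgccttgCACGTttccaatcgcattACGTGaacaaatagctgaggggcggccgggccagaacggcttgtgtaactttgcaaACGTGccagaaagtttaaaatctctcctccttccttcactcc
LOX holds 4 ACGTG and 0 GCGTG, CA9 1 and 0, CA12 0 and 1, and STC2 0 and 3.

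The carbonic anhydrases CA9 and CA12 sit on the cell surface, where they turn carbon dioxide into bicarbonate and acid, and CA9 is a hallmark of ccRCC. CA9 was 6.65, 7.86 and 8.10 TPM in 786O WT and 0.116, 0.469 and 0.277 in A4KO, a 26.2-fold fall (log2 fold change of TPM + 1 -2.73, SE 0.12, adjusted p = 7.24e-06, and -4.41 with a pseudocount of 0.1). The A4KO values are near the bottom of the scale, so the size of the fall is uncertain. CA12 rose in both lines. In 786O it was 61.3, 56.1 and 59.0 TPM in WT and 95.2, 101 and 98.4 in A4KO (0.73, SE 0.05, adjusted p = 3.62e-05, and 0.44 with neighbours taken off). In CAKi-1 it was 1.20, 1.23, 1.49 and 1.901 TPM in WT and 12.7, 4.40, 3.39, 11.02 and 3.75 in A4KO, with every A4KO library above WT and replicates 1 and 4 highest (1.55, SE 0.35, adjusted p = 0.00760, and 0.99 with an adjusted p of 6.26e-04 without these libraries, just under the call).

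STC2, a secreted stanniocalcin that responds to hypoxia and to stress of the endoplasmic reticulum, was called lower in both lines. In CAKi-1 it was 375, 379, 362 and 448 TPM in WT and 85.0, 75.8, 116, 66.2 and 108 in A4KO, and in 786O it was 150.0, 152 and 155 TPM in WT and 43.1, 43.8 and 47.9 in A4KO. The groups did not overlap in either line, with falls of 4.33-fold (-2.13, SE 0.16, adjusted p = 2.69e-05) and 3.40-fold (-1.74, SE 0.05, adjusted p = 1.73e-06). The difference between these changes did not pass and lay between -0.07 and 0.84 (95% interval), but was 0.48 with an adjusted p of 0.0388 without CAKi-1 A4KO replicate 3.

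LOX, lysyl oxidase, which cross-links collagen, showed the largest difference between the lines among the 35 members measured in both. In 786O it was 19.5, 20.7 and 18.7 TPM in WT and 0.303, 0.587 and 0.629 in A4KO, a 38.8-fold fall (-3.78, SE 0.09, adjusted p = 1.14e-06, and -5.07 with a pseudocount of 0.1). CAKi-1 had 22.9, 20.8, 26.7 and 30.2 TPM in WT and 47.2, 34.9, 32.5, 52.4 and 30.1 in A4KO, a rise of 0.61 (SE 0.18, adjusted p = 0.0231) with a slight overlap, which was lost without WT replicate 1 (adjusted p = 0.0627), WT replicate 2 (0.0699) or A4KO replicates 1 and 4 (0.37, adjusted p = 0.0503). The changes differed by -4.39 (SE 0.24, adjusted p = 5.50e-09).

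Of the other secreted members, VEGFA, the main growth factor of vessels, fell in 786O from between 276 and 281 TPM to between 164 and 177 (-0.70, SE 0.04, adjusted p = 2.62e-05, and -0.41 with neighbours taken off). In CAKi-1 it was 52.3, 50.8, 59.1 and 58.6 TPM in WT and 54.1, 27.8, 31.3, 42.3 and 34.5 in A4KO, replicate 1 lying at WT levels (-0.56, SE 0.17, adjusted p = 0.0279). The adjusted p was above 0.05 without WT replicate 1, 3 or 4 or A4KO replicate 3 or 5 (0.0514 to 0.0721), and without A4KO replicates 1 and 4 the fall was -0.81 (adjusted p = 4.99e-04). ADM, adrenomedullin, a vessel-relaxing peptide, fell in 786O from 134 to 119 TPM (-0.17). That fall was lost without A4KO replicate 2 (adjusted p = 0.0514) and became 0.14 with neighbours taken off (adjusted p = 0.0598). In CAKi-1 ADM ranged from 4.70 to 17.9 TPM in WT and 5.71 to 17.5 in A4KO.

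The collagen prolyl hydroxylases P4HA1 and P4HA2, which need oxygen to stabilise collagen, changed in opposite directions in 786O. P4HA2 was 108, 110.1 and 109 TPM in WT and 67.3, 71.5 and 67.7 in A4KO (-0.66, SE 0.04, adjusted p = 2.42e-05), and P4HA1 rose from 58.7 TPM (SD 0.48, n = 3) to 79.2 (SD 1.38, n = 3), a log2 fold change of 0.43. P4HA2 thus went from 64.8% to 65.3% of the pair to 45.6% to 47.8%. In CAKi-1 P4HA2 was 68.4, 71.0, 93.9 and 141 TPM in WT and 150.1, 125, 116, 141 and 109.6 in A4KO, with a wide WT spread (0.50, SE 0.20, adjusted p = 0.0773). Without WT replicate 4 it rose (0.72, adjusted p = 0.00511). The changes of P4HA2 differed by -1.16 (SE 0.27, adjusted p = 0.00208). P4HA1 in CAKi-1 did not pass with all libraries (-0.02, adjusted p = 0.937) and fell without replicates 1 and 4 (-0.33, adjusted p = 0.00795).

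BNIP3 and BNIP3L mark mitochondria for removal. BNIP3 fell in CAKi-1 from 209 TPM (SD 12.6, n = 4) to 132 (SD 31.2, n = 5), a change of -0.69 on the log2 scale (SE 0.15, adjusted p = 0.00692), and fell by 7.86% in 786O, where the adjusted p of 0.0411 was lost without any 1 library other than WT replicate 1. BNIP3L fell in 786O from 62.2 to 37.0 TPM (-0.73, SE 0.04, adjusted p = 2.90e-05) and was 73.6 and 79.5 TPM in CAKi-1 (adjusted p = 0.803). BNIP3L went from 24.4% to 28.0% of the pair in CAKi-1 WT to 35.2% to 39.4% in A4KO, and from 43.1% to 44.8% in 786O WT to 32.7% to 34.2% in A4KO. The changes in the lines differed for both, by 0.57 for BNIP3 (adjusted p = 0.0266) and by -0.81 for BNIP3L (adjusted p = 0.0172). For BNIP3 the difference was lost without 786O WT replicate 1 or 3 or A4KO replicate 2 (adjusted p = 0.0519 to 0.0537) and was 0.18 with neighbours taken off (adjusted p = 0.476). BNIP3 has 44 pseudogenes by name.

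NDRG1, a stress-induced gene tied to differentiation, was called higher in both lines. In 786O it was 363, 354 and 346 TPM in WT and 934, 953 and 959 in A4KO, a 2.68-fold rise (1.42, SE 0.04, adjusted p = 1.25e-06). CAKi-1 had 51.2, 44.3, 47.8 and 44.3 TPM in WT and 193, 78.6, 57.0, 187 and 65.4 in A4KO. Every A4KO library was above WT, and replicates 1 and 4 were far above the other 3. That rise (1.10, SE 0.37, adjusted p = 0.0426) was lost without any 1 of the 4 WT libraries (adjusted p = 0.0759 to 0.0928) or without A4KO replicate 1 (0.0716) or 4 (0.0769), and without both it was 0.50 (SE 0.11, adjusted p = 0.00974).

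CCND1, cyclin D1, which drives entry into the cell cycle and is a HIF target in VHL-deficient renal cells, fell in CAKi-1. It was 131, 153, 139 and 129.6 TPM in WT and 30.6, 39.7, 45.3, 31.6 and 47.5 in A4KO, a 3.54-fold fall without overlap (-1.82, SE 0.14, adjusted p = 2.52e-05). In 786O it was 264, 256 and 261 TPM in WT and 245, 247 and 235 in A4KO, and its mean fell by 7.02%, with an adjusted p of 0.0484 that was lost without any 1 library. The changes differed by 1.71 (SE 0.18, adjusted p = 2.47e-06).

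ANKRD37, an ankyrin repeat protein induced by hypoxia, rose in 786O from 2.58 to 5.07 TPM (0.74, SE 0.14, adjusted p = 0.00454) and was 5.95 and 5.32 TPM in CAKi-1 (-0.20, adjusted p = 0.499), where it fell without A4KO replicates 1 and 4 (-0.49, adjusted p = 0.0224). KDM3A, a histone demethylase, was 22.3 and 21.3 TPM in 786O and 28.2 and 32.7 in CAKi-1. MXI1, an antagonist of MYC, was 17.0 and 16.5 TPM in 786O and 20.1 and 26.4 in CAKi-1. KDM3A and MXI1 did not pass in either line, but MXI1 rose in CAKi-1 with neighbours taken off (0.55, adjusted p = 0.0450). Without A4KO replicates 1 and 4, MXI1 was 0.03 (adjusted p = 0.692) and KDM3A -0.049 (adjusted p = 0.631) in CAKi-1.

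**Figure D4:**
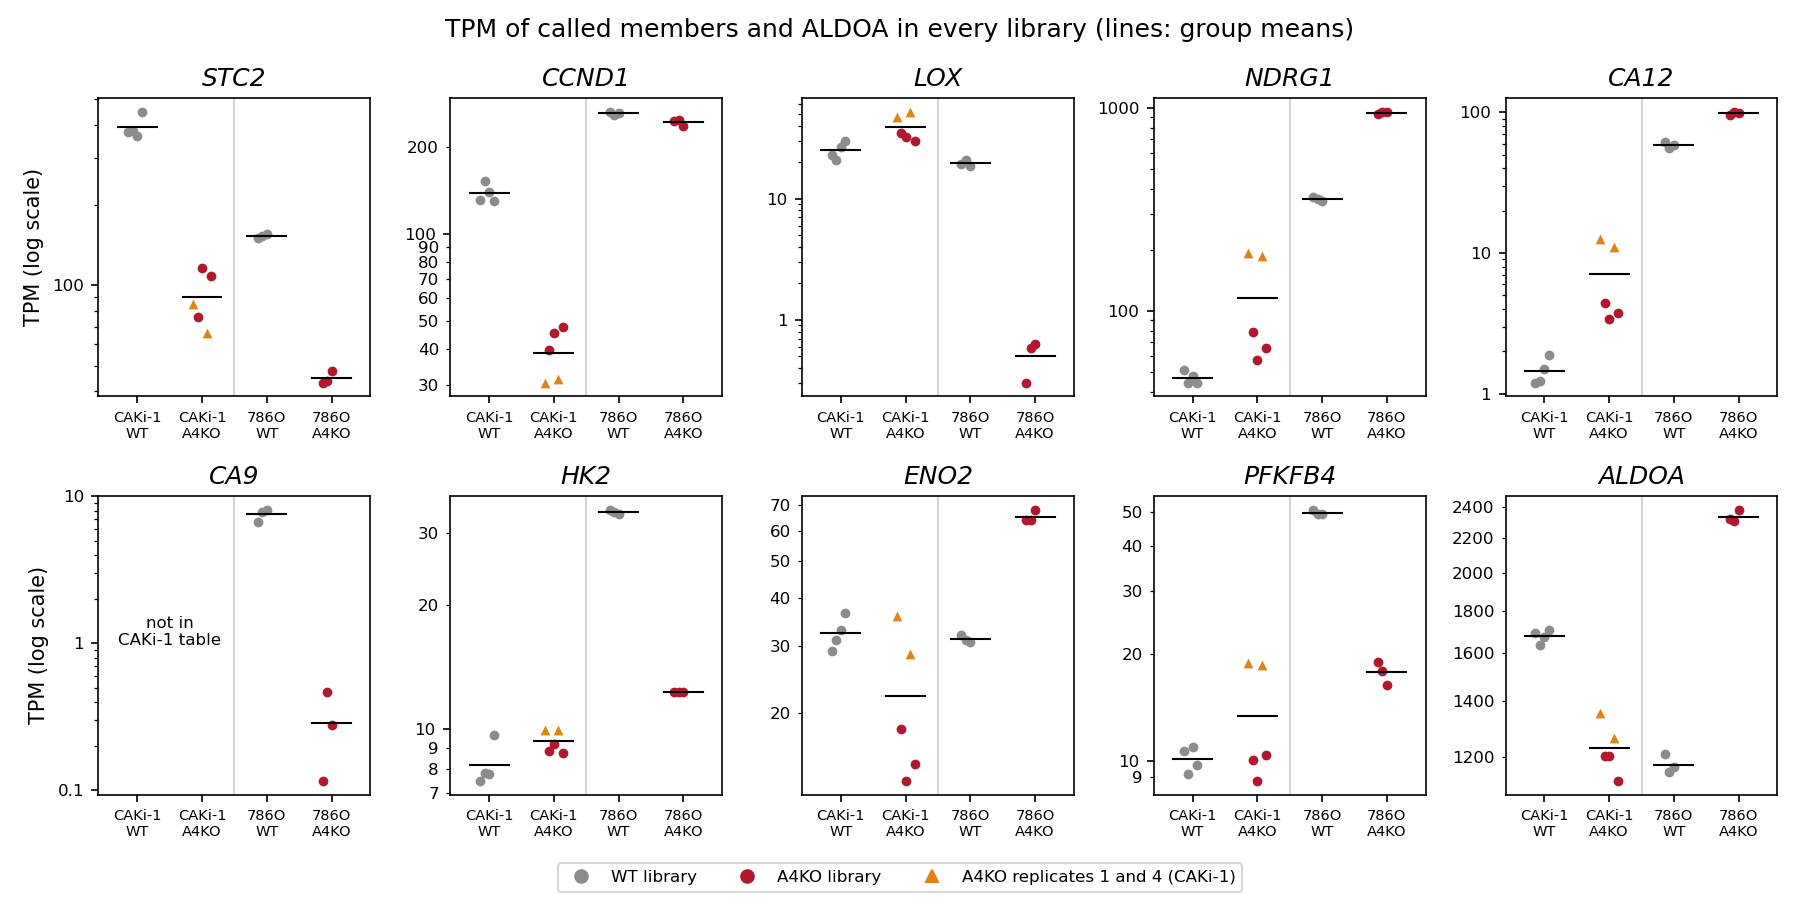
TPM on a log axis in every library for the 9 members called in at least 1 line and for ALDOA, with lines at group means (grey WT, red A4KO, orange triangles CAKi-1 A4KO replicates 1 and 4). STC2 is lower in A4KO of both lines, LOX, CA9, HK2 and PFKFB4 fall in 786O, and NDRG1 and CA12 of CAKi-1 are highest in replicates 1 and 4.

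The interaction term was fitted over 15247 shared genes, of which 55.1% passed at an adjusted p of at most 0.05. By it, the change from WT to A4KO differed between the lines for 21 of 35 members at that limit. For 7 the difference was also at least 1 on the log2 scale, where 12.8% of all genes met both limits. The change was more positive in 786O for ALDOA, ENO2 and CCND1, and more negative in 786O for HK2, PFKFB4, LOX and P4HA2. All 7 passed both limits without CAKi-1 A4KO replicates 1 and 4, with differences of -1.504 for HK2, 1.504 for ALDOA, 2.08 for ENO2, -1.39 for PFKFB4, -4.15 for LOX, -1.04 for P4HA2 and 1.52 for CCND1. With neighbours taken off 6 of the 7 did, all but ALDOA. Without the replicates 1 and 4, ALDOC (1.26) and ANKRD37 (1.23) met both limits too, which made 9. With all libraries their differences passed the adjusted p at 0.87 and 0.94, but that for ALDOC did not pass in 11 of the 15 fits with a single library left out (adjusted p = 0.0513 to 0.0873) or with neighbours taken off (0.0560), where ANKRD37 was 0.54 (0.155). The differences for 4 further members did not pass with all libraries and passed without these, 0.92 for NDRG1 (adjusted p = 6.33e-05), 0.75 for PFKFB3 (5.39e-06), 0.76 for P4HA1 (7.40e-06, and 0.0287 without replicate 1 alone) and 0.53 for LDHA (0.00216), and that for PGK1 was lost (-0.19, adjusted p = 0.0553).

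**Figure D5:**
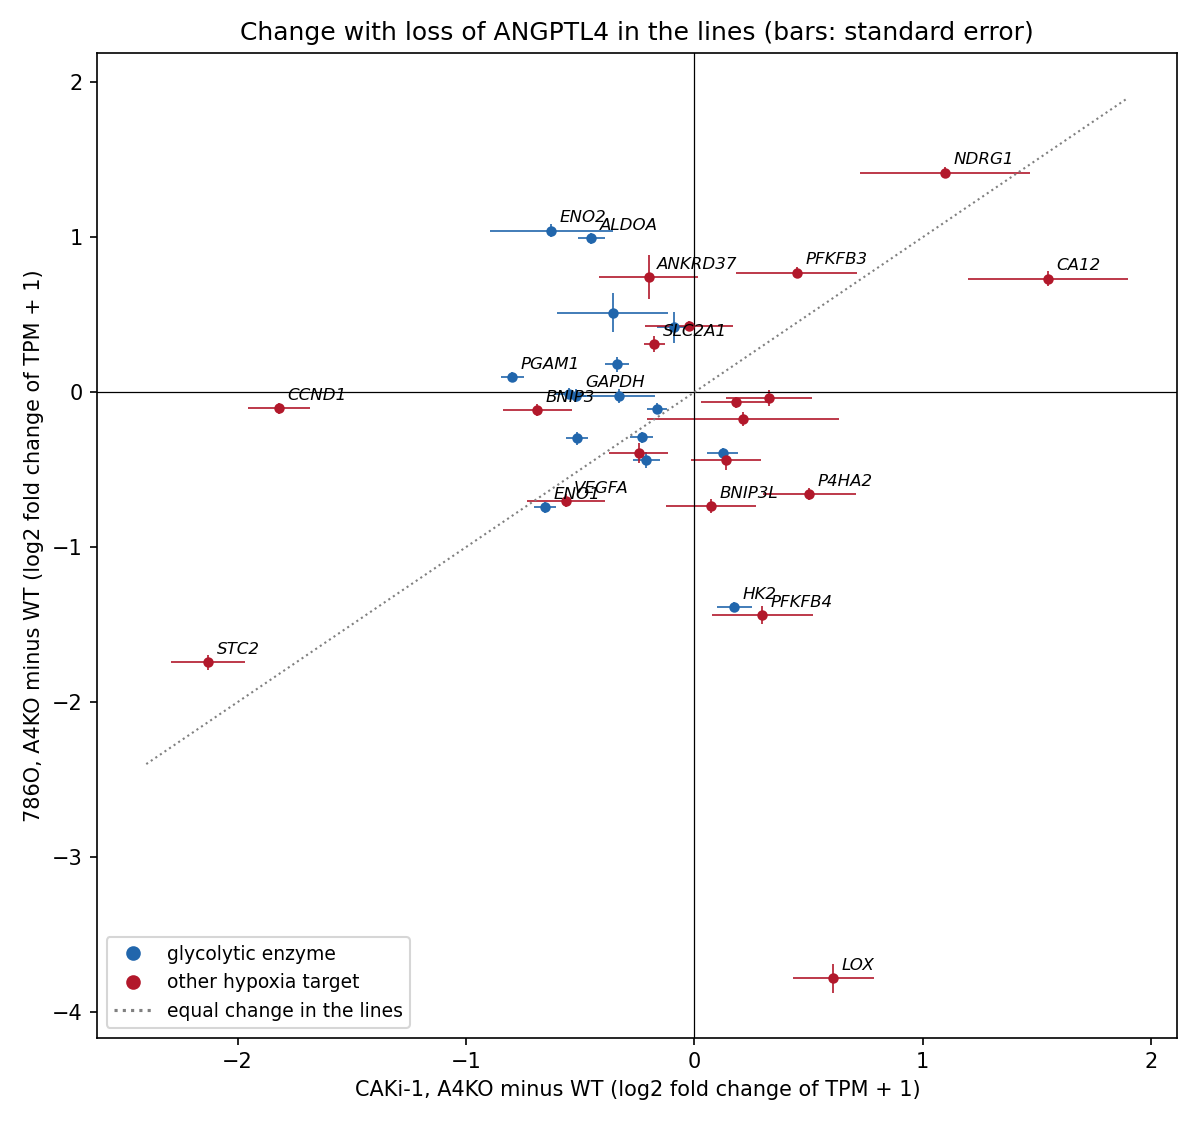
Log2 fold change of TPM + 1, A4KO minus WT, in CAKi-1 (horizontal) and 786O (vertical) for the 35 members in both tables, with bars of 1 standard error (blue glycolytic enzymes, red other hypoxia targets, dotted line equal change). STC2 and NDRG1 lie near the dotted line, and LOX, PFKFB4, HK2, ENO2, ALDOA and CCND1 lie furthest from it.

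WT levels of the members, which come from separately deposited tables and are set side by side with no test, were higher in 786O for SLC2A1 (637 against 92.2 TPM), VEGFA (279 against 55.2), NDRG1 (355 against 46.9), ADM (134 against 9.25), CA12 (58.8 against 1.45), PFKFB4 (49.7 against 10.1) and HK2 (33.7 against 8.18). They were higher in CAKi-1 for ALDOC (20.5 against 1.37), BNIP3 (209 against 79.2) and STC2 (391 against 153). LOX was 25.2 TPM in CAKi-1 and 19.6 in 786O, and ENO2 32.4 and 31.2.

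Beyond the members, 25 further genes of glycolysis and pyruvate use were measured in each line, with 0 called in CAKi-1 (6 higher and 5 lower by the adjusted p alone) and 3 called lower in 786O (9 higher and 9 lower by the adjusted p alone). Of all genes 39.0% passed in CAKi-1 and 61.0% in 786O, and of those with a mean of at least 10 TPM 47.4% and 73.3%. Of the 25 listed, 11 passed in CAKi-1 and 18 in 786O. The genes called were PCK2, mitochondrial PEP carboxykinase (91.0 to 95.3 TPM in WT, 18.3 to 21.8 in A4KO), PDP1, the phosphatase that turns on pyruvate dehydrogenase (87.6 to 89.3 and 30.2 to 31.5), and ENO3, muscle enolase (26.2 to 29.3 and 12.4 to 13.9). Of 34 further hypoxia targets, 9 were higher and 6 lower in CAKi-1 by the adjusted p alone, 44.1% of the list, and 3 were called, 2 higher and 1 lower. The higher ones were IGFBP3, an IGF-binding protein (26.0 to 44.4 TPM in WT, 277 to 569 in A4KO), and DDIT4, an inhibitor of mTOR (79.3 to 179 and 182 to 467). In 786O 13 were higher and 14 lower by the adjusted p alone, 79.4% of the list, and 6 were called. Of all genes 3.33% were called in CAKi-1 and 7.62% in 786O. The oxygen sensor EGLN3 (25.4 to 28.3 and 72.6 to 75.1) and TMEM45A (14.5 to 16.2 and 32.9 to 34.7) were higher, and HMOX1, heme oxygenase (131 to 133 and 27.1 to 28.9), PPFIA4 (4.31 to 7.58 and 0.766 to 1.14), ERO1A, an oxidase of the endoplasmic reticulum (87.4 to 90.4 and 40.0 to 43.1), and NDUFA4L2 (2.04 to 3.31 and 0.439 to 0.763) were lower.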

How the data were processed

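RNA of 15 libraries, 9 of CAKi-1 (4 WT, 5 A4KO) and 6 of 786O (3 WT, 3 A4KO), was sequenced from poly(A) libraries as 150-base read pairs. Kallisto, limma and hg38 are named in the submitters' processing notes, and their versions are not given in the sources used here. The authors deposited gene-level TPM values, 1 table per line, a unit inferred from the values. How transcripts were summed to genes is not given in the sources used here. The labels state 3000000 reads per sample. The tables themselves hold no read numbers, since TPM keeps none, so the depth reached by each library is unknown, no counting interval is given, and count models were not used.

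Groups follow the sample labels. Deposited values were put on the scale log2(TPM + 1), which understates changes of genes at low TPM, and A4KO was set against WT within each line by limma 3.58.1 (lmFit, eBayes) in R 4.3.3. Tests were two-sided without a filter, and p-values were adjusted per line across its whole table (Benjamini-Hochberg). The difference of effects is an interaction contrast over the genes of both tables, each effect being taken within its table. Fits were tested on simulated data. GENCODE release 44 gave genome order and pseudogenes, and RefSeq (GRCh38.p14) gave promoter windows. Members and gene lists were chosen with earlier results of these data known. All members are named, with values by library for members called, members whose effects differed by at least 1, and the 5 largest changes in each line. Of other pathway genes, those called are named, except for items not reported here. LDHA and VEGFA in CAKi-1, given by library beyond that rule, were chosen after their values were seen.

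Alternatives were a pseudocount of 0.1, a minimum mean of 1 TPM, quantile and median-ratio scaling, eBayes with trend and robust options, a replicate block, each library left out, CAKi-1 A4KO replicates 1 and 4 left out, and subtraction of the median shift of 25 expressed neighbours per side (neighbour-centred).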

Additional observations from a re-analysis of the deposited data

Results flagged for a closer look

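The change from WT to A4KO was compared between the lines by the limma interaction test (786O minus CAKi-1, log2 scale). Of all genes 12.8% had an adjusted p of at most 0.05 and a difference of at least 1. Both limits were met by 7 of the 35 members. These are ALDOA (1.44), ENO2 (1.67), CCND1 (1.71), HK2 (-1.56), PFKFB4 (-1.74), P4HA2 (-1.16) and LOX (-4.39). With neighbour-centred values 6 of them met both limits, ALDOA being 0.94. No single library stood apart from its group by Dixon's test in the 70 groups of CAKi-1 libraries tested (35 members, WT and A4KO). A pair such as A4KO replicates 1 and 4 cannot be found by that test, and groups of 3 were not tested.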

How the results depend on the processing

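A pseudocount of 0.1 moved the number of genes called from 543 to 1077 in CAKi-1, from 1233 to 2095 in 786O, and from 1954 to 3005 for the difference of effects. The adjusted p alone gave 6348 and 9874 genes and 18 and 31 members. In CAKi-1, 3 members were higher by the adjusted p, 5 with neighbour-centred values, and 1 to 4 when each library was left out (1 without WT replicate 1 or 2). Quantile normalization moved the share of higher calls in 786O from 31.9% to 42.7% and in the difference of effects from 38.0% to 47.6%. Leaving out each library gave 477 to 608 called genes in CAKi-1, 1221 to 1243 in 786O and 1825 to 2074 for the difference. Quantile normalization also let PFKL pass in CAKi-1 (0.22, adjusted p = 0.0486) and the difference of effects for PKM (0.27, adjusted p = 0.00281). It lost PGK1 (0.0604), VEGFA (0.0549) and SLC2A1 (0.201) in CAKi-1, BNIP3 (0.0679) in 786O, and the differences for HK1 (0.236), SLC2A3 (0.0717) and BNIP3 (0.067, all adjusted p). In 786O median-ratio scaling lost PKM (0.127), BNIP3 (0.14) and CCND1 (0.17), a pseudocount of 0.1 lost PGAM1 (0.0544), BNIP3 (0.0553) and CCND1 (0.0642), and neighbour-centred values lost CCND1 (-0.029, adjusted p = 0.537) and PGK1 (0.303). Neighbour-centred values also lost TPI1 in CAKi-1 (0.14). Neighbour-centred values moved passing members by over 1.5 times in both directions, up for PGK1 (-0.33), PKM (-0.25) and SLC2A1 in CAKi-1 and GPI (0.54), PKM (-0.34) and BNIP3 (-0.30) in 786O, and down for HK1, PFKP, GAPDH and ENO1 in CAKi-1 and ALDOA, CA12, VEGFA and ANKRD37 (0.41) in 786O.

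These values turned direction, 5 of them from past the adjusted p (PKM, PGAM1 and ADM in 786O, and the differences for HK1 and PGK1). In CAKi-1 PFKM was 0.0057 under quantile normalization. P4HA1 was 0.081 under quantile normalization, 0.0058 under median-ratio scaling, 0.23 neighbour-centred, 0.051 under the replicate block, and -0.15 to 0.071 with a library left out. ADM ranged from -0.0097 to 0.57 and BNIP3L from -0.045 to 0.18 with a library left out. Without A4KO replicates 1 and 4 SLC2A3 was -0.099, PFKFB4 -0.054, ADM -0.24, BNIP3L -0.22 and KDM3A -0.049. In 786O, under quantile normalization PFKP was 0.0090, GAPDH 0.095, PKM 0.036 and MXI1 0.040. Under median-ratio scaling PFKP was 0.029, GAPDH 0.017 and LDHA 0.015. Neighbour-centred values were -0.082 for PGAM1, 0.22 for LDHA (adjusted p = 0.00358), 0.14 for ADM and 0.096 for KDM3A. With a library left out PFKP ranged from -0.023 to 0.0045, GAPDH from -0.041 to 0.0026 and LDHA from -0.050 to 0.0050. In the difference of effects, TPI1 was 0.0067, ENO1 0.099 and PDK1 0.036 under quantile normalization. Neighbour-centred values were -0.088 for HK1, 0.25 for PGK1 (adjusted p = 0.0433), -0.092 for PKM and 0.21 for VEGFA. Without CAKi-1 A4KO replicates 1 and 4 PDK1 was 0.043, VEGFA 0.10 and ADM 0.062. The cause was not tested.

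Replicate numbers were not taken as pairs. The correlations of same-numbered deviations were -0.061, 0.121, -0.035 and 0.134 in CAKi-1 and -0.046, 0.018 and 0.006 in 786O. Differently numbered pairs ranged from -0.182 to 0.176 in CAKi-1 and from -0.046 to 0.039 in 786O. In CAKi-1 the signs followed the split of A4KO replicates 1 and 4 from the others, so these values cannot decide on pairing. With the number as a block, which leaves A4KO replicate 5 without a WT partner, 603 genes were called in CAKi-1 and 1233 in 786O. TPI1, PGK1, PKM, SLC2A1 and VEGFA in CAKi-1 and PGAM1, PKM, BNIP3 and CCND1 in 786O did not pass under the block. The labels state 3000000 reads per sample and the depth reached by each library is unknown, so the size of changes of members under about 1 TPM, as CA9 and LOX in 786O A4KO, is uncertain. Count models were not run because the values are TPM.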
